A study of Trametes versicolor with 3 samples.

Results

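The genes described here encode the mitochondrial respiratory chain and ATP synthase of the fungus Trametes versicolor, which causes white rot, the decay of both lignin and polysaccharides in wood. Members are the gene models whose first KEGG name is NADH dehydrogenase, succinate dehydrogenase, ubiquinol-cytochrome c reductase, cytochrome c oxidase, an F-type proton ATPase or alternative oxidase. The rule found 71 of the 11480 gene models listed in at least 1 library. Of these, 29 are subunits of complex I, 4 of complex II, 6 of complex III, 8 of complex IV and 11 of ATP synthase, together 58 subunits. A further 3 are type II NADH dehydrogenases, 5 are assembly proteins of complex IV, and 5 carry a second, unrelated KEGG name. No first KEGG name was alternative oxidase, and 0 members were named as a subunit that fungi usually encode in the mitochondrial genome. The rule therefore covers nuclear genes. A subunit without such a first KEGG name is not counted, so the complexes may not be complete here.

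The respiratory chain passes electrons from NADH and succinate to oxygen through protein complexes of the inner mitochondrial membrane. Complexes I and II reduce ubiquinone, complex III passes the electrons to cytochrome c, and complex IV reduces oxygen to water. Complexes I, III and IV pump protons, and ATP synthase uses the resulting gradient to make ATP. Fungi also have single-protein bypasses that pump no protons, the type II NADH dehydrogenases and the alternative oxidase.

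Mycelium of strain CICC 14001 was sampled on day 9 from PDA, from a medium with glucose as carbon source and from a medium made with poplar, when the mat had reached 4 cm. The growth protocol gives 25 °C and names PDA for every sample, in conflict with the source names, from which the groups were taken. No allele or other agent is named, and PDA usually stands for potato dextrose agar, a rich medium for fungi. RNA was sequenced in 1 library per medium, so the media could not be tested against the spread of replicates, no p-value is given, and every value describes these libraries. Their depths were 2.85 M, 2.68 M and 2.80 M uniquely assigned reads in the order PDA, glucose and poplar. Levels are in RPKM, which scales reads by gene model length and library total. A fold is the RPKM ratio followed in brackets by the exact 95% interval of the read counts, which covers no error but that of counting. A gene was measured in a comparison at 1 RPKM or more in either library, and called at a ratio of 2-fold or more between values of RPKM plus 1. As RPKM is a share of each library, less respiratory chain RNA and more of other RNA cannot be told apart.

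The respiratory chain genes were among the well expressed genes on every medium. They took 1.54% of all reads on PDA (95% Wilson interval 1.52 to 1.55), 1.26% on glucose (1.24 to 1.27) and 1.40% on poplar (1.38 to 1.41). The median member measured 324 RPKM on PDA, 238 on glucose and 286 on poplar, against medians of 16.1, 16.2 and 16.5 RPKM over the listed genes of each library. These member medians stood above 95.4%, 93.5% and 94.5% of all gene models. The groups stood at different levels. ATP synthase had the highest median among the groups on PDA and glucose, at 642 and 471 RPKM, and complex II on poplar, at 587 RPKM. The type II NADH dehydrogenases, the assembly proteins and the genes with a second KEGG name had medians between 4.70 and 23.8 RPKM.

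**Figure D1:**
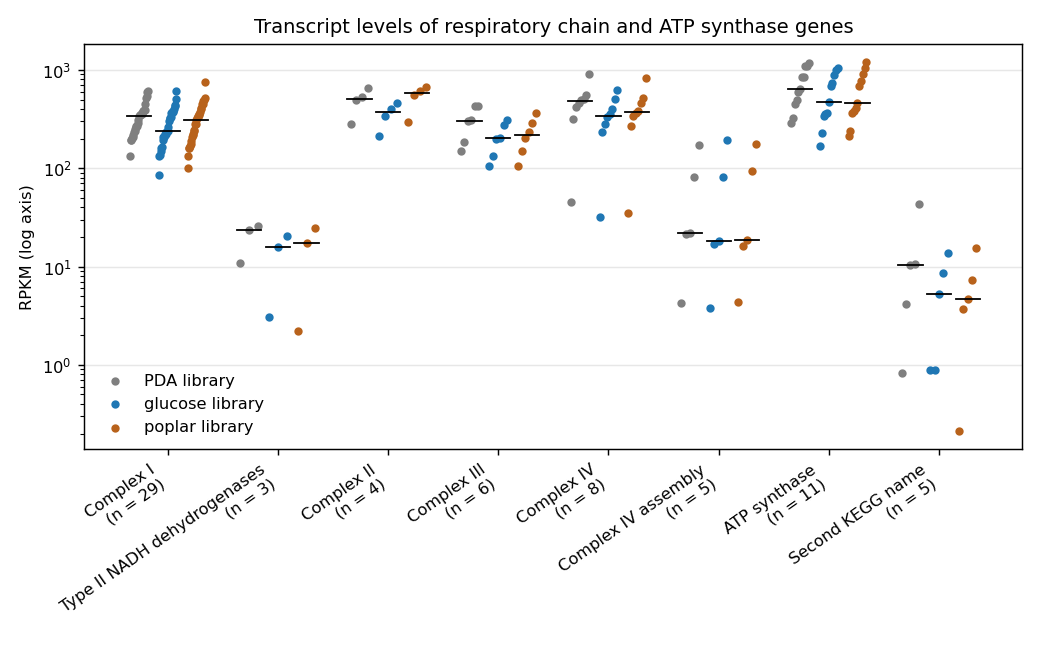
RPKM on a log axis of each of the 71 members, by group, in the PDA (grey), glucose (blue) and poplar (brown) libraries, with 1 library per medium; black lines are medians over genes. Most subunits of the 5 complexes lie between 100 and 1200 RPKM, and the bypass enzymes and assembly proteins mostly below 100.

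Most members were highest on PDA and, as deposited, lowest on glucose, by small steps. Of the 70 members with a mean of at least 1 RPKM, 54 were lowest on glucose, where 37.9% of all such genes were. On PDA 47 were highest, against a background of 30.7%, 17 were highest on poplar (37.4%) and 6 on glucose (31.8%). Only 5 were lowest on PDA (39.1%) and 11 on poplar (23%). Glucose stayed the most frequent lowest medium under the other scalings, but the counts depended on the scaling. After median-of-ratios scaling 41 of the 70 were lowest on glucose (34.6% of all such genes) and 26 on poplar (30.7%), while 57 were highest on PDA (35.8%). With the 50 genes with most reads left out of the totals, 53 were lowest on glucose (39.5%) and 15 on poplar (26.4%). Steps of 2-fold were rare. Between poplar and glucose 1 of the 70 measured members was called higher and 2 lower, where 8.1% and 8.31% of all genes were. Between poplar and PDA 0 were higher and 2 lower (background 10.8% and 5.11%), and between glucose and PDA 0 and 2 (12.7% and 6.52%). Each of these calls fell on a type II NADH dehydrogenase or on a gene with a second KEGG name, and none on the 58 subunits. The 2-fold backgrounds cover all measured genes, of which 4297 had a mean of at least 100 reads, as did 61 of the members. A gene with few reads passes 2-fold more easily by counting error, and no 2-fold share was taken at matched depth.

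The comparison of glucose with PDA had the lowest member median. The median log2 ratio of the 70 members was −0.36, against 0.015 over all measured genes, and their summed reads were 1.22-fold lower (1.21 to 1.24) per total reads. Of the members, 61 lay below a ratio of 1, where 49.2% of all genes did, and for 48 the counting interval excluded 1 (19.5%). An interval is narrower for a gene with more reads. Among the 4297 genes with a mean of at least 100 reads the interval lay below 1 for 45 of 61 members, against 32.9% of these genes, and above 1 for 2 members, against 30.7%. The ratio itself lay below 1 for 54 of these members (background 53%).

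Between poplar and PDA the member median was −0.23, against 0.086 over all genes, and the summed reads were 1.10-fold lower (1.09 to 1.12). The ratio lay below 1 for 51 members (background 42.1%). The interval lay below 1 for 35 members (background 14.7%) and above 1 for 6 (22%). Between poplar and glucose the summed reads were 1.11-fold higher (1.10 to 1.13), but the median of 0.12 was close to the 0.081 of all genes. Of the members, 57 lay above a ratio of 1 (background 56.5%), and the interval lay above 1 for 20 (20.2%) and below 1 for 3 (15.2%). At a mean of at least 100 reads the interval of poplar over PDA lay below 1 for 31 of the 61 members (background 25%), and the ratio for 43 (45.9%). For poplar over glucose the interval lay above 1 for 19 of them, close to the background of 31.5%, and below 1 for 1, where 23.1% of these genes lay below. The ratio was below 1 for 8, against 41.6%. These poplar counts shift with the scaling. Between poplar and glucose 51 of the 58 subunits lay above a ratio of 1 as deposited and 36 after median-of-ratios scaling. Between poplar and PDA 43 lay below 1 as deposited and 52 after that scaling. Between glucose and PDA 52 lay below 1 under both. The scaling moved the other genes as well. The median over all genes went from 0.081 to −0.0043 between poplar and glucose, and from 0.086 to −0.011 between poplar and PDA. The subunit medians after that scaling were 0.039 and −0.33. The comparisons share libraries and are not independent of each other.

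**Figure D2:**
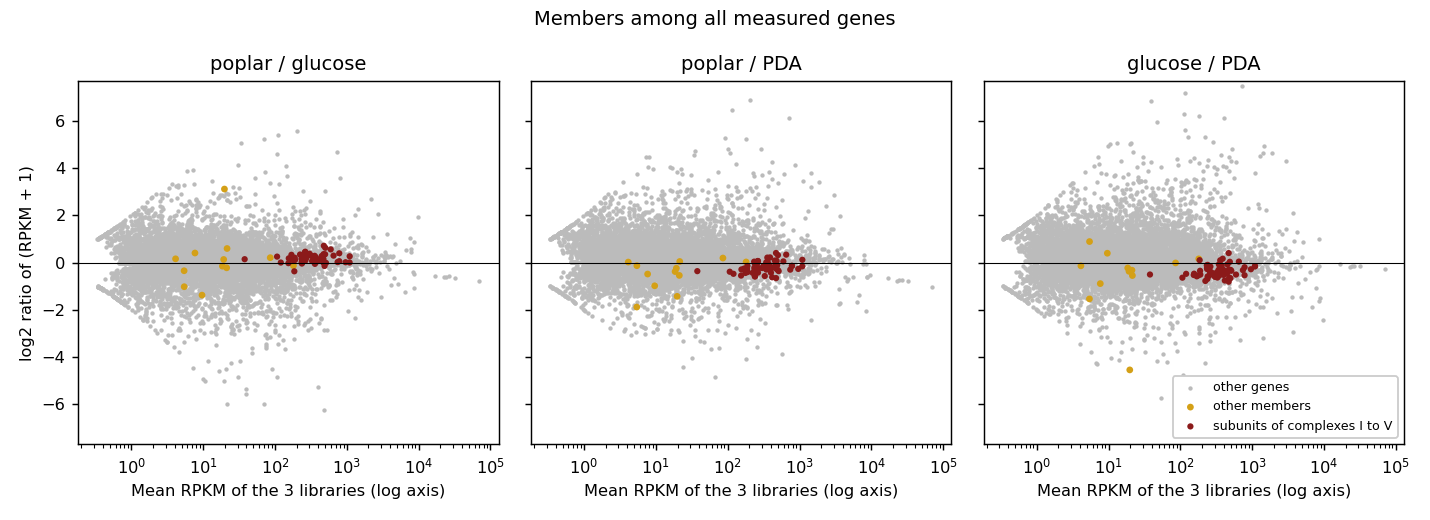
Log2 ratio of RPKM plus 1 against the mean RPKM of the 3 libraries (log axis) for all measured genes, in 3 panels, 1 per comparison; subunits of complexes I to V are dark red, other members yellow and other genes grey. The subunits form a narrow band within 2-fold of 0, with medians of 0.13 for poplar over glucose, −0.23 for poplar over PDA and −0.39 for glucose over PDA.

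Complex I takes electrons from NADH and is the largest of the complexes, with peripheral iron-sulfur and flavin subunits and many accessory ones. Its 29 subunits found by the rule were lower on glucose than on PDA in 24 cases (background 49.2%). Their median log2 ratio was −0.28, with summed reads 1.15-fold lower (1.12 to 1.18). On poplar the summed reads were 1.05-fold lower (1.02 to 1.07) than on PDA and 1.10-fold higher (1.07 to 1.13) than on glucose. Between poplar and glucose 25 of the 29 lay above a ratio of 1 as deposited (background 56.5%) and 17 after median-of-ratios scaling. That scaling also moved the median over all genes, from 0.081 to −0.0043. Single subunits went both ways against PDA, with log2 ratios from −0.69 to 0.40 on glucose and from −0.57 to 0.41 on poplar.

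The flavoprotein 1 subunit Trave1_156641 (NDUFV1 in mammals), which holds the FMN that accepts electrons from NADH, measured 355 RPKM on PDA, 397 on glucose and 413 on poplar. It was 1.12-fold higher (1.04 to 1.20) on glucose than on PDA and 1.16-fold higher (1.09 to 1.25) on poplar than on PDA, so the PDA value was the lowest for this subunit. Its partner flavoprotein 2, Trave1_120990, which carries an iron-sulfur cluster, measured 312 RPKM on PDA, 193 on glucose and 209 on poplar. Here PDA was the high library, with glucose 1.62-fold lower (1.43 to 1.84) and poplar 1.49-fold lower (1.32 to 1.69). A further gene with the flavoprotein 1 name, Trave1_62274, described only as hypothetical, is 876 bases long against 1494 and measured 192 RPKM on PDA, 206 on glucose and 159 on poplar. It was 1.29-fold lower (1.13 to 1.48) on poplar than on glucose, the lowest ratio of the group in that comparison.

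Among the iron-sulfur proteins, which pass electrons from the flavin towards ubiquinone, Fe-S protein 1, Trave1_155064, the longest complex I gene here, measured 209.8 RPKM on PDA, 165 on glucose and 189.9 on poplar. It was 1.27-fold lower (1.17 to 1.39) on glucose than on PDA. Fe-S protein 2, Trave1_68240, and Fe-S protein 7, Trave1_162137, which line the ubiquinone site, differed less between media. The former measured 238 RPKM on PDA, 218 on glucose and 244 on poplar. The latter measured 395 RPKM on PDA, 361 on glucose and 372 on poplar, and its glucose to PDA interval contained 1. Fe-S protein 8, Trave1_163357, measured 344 RPKM on PDA, 326 on glucose and 398 on poplar and was 1.16-fold higher (1.05 to 1.28) on poplar than on PDA. Fe-S protein 4, Trave1_47247, an accessory subunit, measured 362 RPKM on PDA, 238 on glucose and 308 on poplar, with glucose 1.52-fold lower (1.33 to 1.75) and poplar 1.18-fold lower (1.04 to 1.33) than PDA.

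The 3 highest mean levels of complex I per length were those of short gene models. Alpha subcomplex 2, Trave1_39451, measured 594 RPKM on PDA, 612 on glucose and 751 on poplar and was 1.23-fold higher (1.09 to 1.39) on poplar than on glucose, with PDA and glucose nearly level. Trave1_135273, named by KEGG only as NADH dehydrogenase, measured 613 RPKM on PDA, 386 on glucose and 493 on poplar, with glucose 1.59-fold lower (1.35 to 1.87) than PDA. Alpha subcomplex 4, Trave1_27774, measured 538 RPKM on PDA, 437 on glucose and 449 on poplar. KEGG places it in complex I, although its mammalian counterpart is now assigned to complex IV. Alpha subcomplex 13, Trave1_27465 (GRIM-19 in mammals), stood against the trend. It measured 387 RPKM on PDA, 512 on glucose and 513 on poplar, and was 1.32-fold higher (1.15 to 1.52) on glucose and 1.33-fold higher (1.16 to 1.52) on poplar than on PDA. The acyl carrier protein of complex I, Trave1_111015, which also serves mitochondrial fatty acid synthesis, measured 231 RPKM on PDA, 162 on glucose and 175 on poplar and was 1.43-fold lower (1.21 to 1.68) on glucose than on PDA. The lowest mean level was that of alpha subcomplex 11, Trave1_159287, a membrane subunit, with 133 RPKM on PDA, 85.2 on glucose and 102 on poplar. The 21 kDa subunit Trave1_69752 measured 286 RPKM on PDA, 210.2 on glucose and 284 on poplar and had the highest ratio of complex I between poplar and glucose, 1.35-fold higher (1.16 to 1.57). The other 14 complex I genes, among them Fe-S proteins 3, 5 and 6 and most alpha and beta accessory subunits, had mean levels between those of Fe-S protein 5, Trave1_39620, with 194 RPKM on PDA, 134 on glucose and 132 on poplar, and Fe-S protein 6, Trave1_42331, with 451 RPKM on PDA, 427 on glucose and 479 on poplar. Of these, 13 were lower on glucose than on PDA, and alpha subcomplex 8, Trave1_96272, was the exception with 348 RPKM on PDA, 372 on glucose and 358 on poplar.

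The type II NADH dehydrogenases, so grouped here from their enzyme class number in KEGG, oxidise NADH without pumping protons. They lay below every complex I gene in level and did not move alike. Trave1_136968 measured 23.8 RPKM on PDA, 15.9 on glucose and 24.6 on poplar, and was 1.54-fold higher (1.17 to 2.06) on poplar than on glucose. Trave1_172440 measured 25.8 RPKM on PDA, 20.4 on glucose and 17.3 on poplar, lowest on poplar, where it was 1.49-fold lower (1.11 to 2.00) than on PDA. Trave1_155291 had 45 reads on PDA, 12 on glucose and 9 on poplar, or 10.9 RPKM on PDA, 3.10 on glucose and 2.22 on poplar. It was 4.91-fold lower (2.37 to 11.4) on poplar and 3.52-fold lower (1.83 to 7.32) on glucose than on PDA, the only called differences in this group. Reads covered 60.0% of this gene model on PDA and 27.0% on poplar.

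Complex II, succinate dehydrogenase, belongs to both the respiratory chain and the tricarboxylic acid (TCA) cycle and pumps no protons. All 4 of its subunits were higher on poplar than on glucose, each with an interval above 1. Among all genes with a mean of at least 100 reads, 31.5% had such an interval. The summed reads of complex II were 1.49-fold higher (1.42 to 1.55). That interval lay above the intervals of complexes I, III and IV and of ATP synthase, whose summed ratios ran from 1.05 to 1.11. After median-of-ratios scaling the log2 ratio of summed reads of complex II fell from 0.57 to 0.48. Those of the other complexes then ran from −0.025 to 0.059. Glucose was 1.36-fold lower (1.29 to 1.42) than PDA, again with all 4 subunits on the same side (background 49.2%).

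The flavoprotein subunit Trave1_28530, which binds FAD and oxidises succinate, measured 282 RPKM on PDA, 214 on glucose and 295 on poplar, and was 1.38-fold higher (1.27 to 1.49) on poplar than on glucose. The iron-sulfur subunit Trave1_66374 measured 492 RPKM on PDA, 396 on glucose and 613 on poplar. It was 1.55-fold higher (1.42 to 1.69) on poplar than on glucose and 1.25-fold higher (1.15 to 1.35) than on PDA. The membrane subunits anchor the enzyme and bind ubiquinone. Of these, cytochrome b560, Trave1_59715, measured 653 RPKM on PDA, 458 on glucose and 676 on poplar, 1.47-fold higher (1.34 to 1.63) on poplar than on glucose. The other anchor, Trave1_50382, measured 531 RPKM on PDA, 342 on glucose and 561 on poplar, 1.64-fold higher (1.46 to 1.84). In each subunit glucose was the low library, and PDA and poplar lay close together except in the iron-sulfur subunit. Poplar against PDA gave an interval above 1 for the iron-sulfur subunit alone, and the median log2 ratio of 0.071 as deposited became −0.029 after median-of-ratios scaling and −0.0016 when the 50 genes with most reads were left out of the totals, so its direction depends on the scaling.

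**Figure D3:**
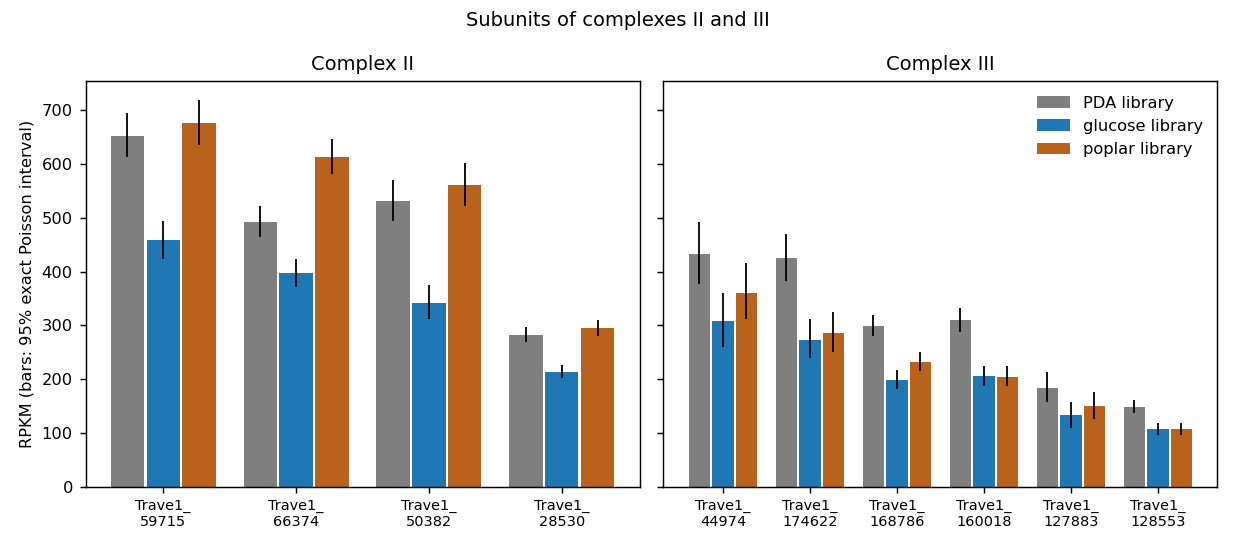
RPKM of each complex II subunit (left) and complex III subunit (right) in the PDA (grey), glucose (blue) and poplar (brown) libraries; error bars are 95% exact Poisson intervals of the read count and cover counting error only. In complex II glucose stands below both other libraries, whereas in complex III PDA stands above both.

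Complex III, ubiquinol-cytochrome c reductase, passes electrons from ubiquinol to cytochrome c. Its 6 subunits found by the rule were all lower on glucose than on PDA (background 49.2%). They were also all lower on poplar than on PDA (background 42.1%), and both directions held under both other scalings. Summed reads were 1.48-fold lower (1.39 to 1.56) on glucose and 1.37-fold lower (1.30 to 1.45) on poplar than on PDA. Between poplar and glucose they differed little, with poplar 1.08-fold higher (1.01 to 1.15) and a log2 ratio that dropped from 0.11 to 0.017 after median-of-ratios scaling.

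The Rieske iron-sulfur subunit Trave1_160018, which takes the electron from ubiquinol, measured 309 RPKM on PDA, 205 on glucose and 205 on poplar. It was 1.51-fold lower (1.35 to 1.70) on poplar than on PDA. Cytochrome c1, Trave1_168786, which hands the electron to cytochrome c, measured 299 RPKM on PDA, 199 on glucose and 232 on poplar. It was the only subunit of this complex with an interval above 1 between poplar and glucose, 1.17-fold higher (1.04 to 1.31). Subunit 8, Trave1_174622, measured 425 RPKM on PDA, 273 on glucose and 286 on poplar, and subunit 9, Trave1_44974, a small subunit, measured 432 RPKM on PDA, 307 on glucose and 361 on poplar, the highest mean of the complex. Subunit 6, Trave1_127883, the acidic hinge protein, measured 184 RPKM on PDA, 132 on glucose and 149.9 on poplar, and its poplar to PDA interval contained 1, as did that of subunit 9. Core subunit 2, Trave1_128553, a structural subunit on the matrix side, measured 148 RPKM on PDA, 106 on glucose and 106 on poplar. Reads covered 79.5% of its gene model on PDA, against a median coverage of 98.3% over the members and libraries.

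Complex IV, cytochrome c oxidase, reduces oxygen. Of its 8 subunits found by the rule, 7 were lower on glucose than on PDA (background 49.2%). On poplar 7 were lower than on PDA (background 42.1%). Summed reads were 1.27-fold lower (1.21 to 1.34) on glucose and 1.15-fold lower (1.09 to 1.21) on poplar than on PDA, and 1.11-fold higher (1.05 to 1.17) on poplar than on glucose. The exceptions were subunit 4 against glucose and subunit 6a against poplar. Subunit 4, Trave1_71081, measured 497 RPKM on PDA, 508 on glucose and 460.0 on poplar, and all 3 of its intervals contained 1. Subunit 6a, Trave1_139267, measured 503 RPKM on PDA, 403 on glucose and 516 on poplar, with poplar 1.28-fold higher (1.13 to 1.46) than glucose. The log2 ratio of summed reads of complex IV between poplar and glucose fell from 0.15 to 0.059 after median-of-ratios scaling. Between poplar and PDA it went from −0.20 to −0.30.

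Subunit 7, Trave1_123932, had the highest level of complex IV on each medium, with 907 RPKM on PDA, 624 on glucose and 819.7 on poplar, and poplar was 1.31-fold higher (1.13 to 1.53) than glucose. A further subunit 7 gene, Trave1_143852, measured 415 RPKM on PDA, 282 on glucose and 338 on poplar. Subunit 6b, Trave1_30029, which faces the intermembrane space, had the lowest ratios of complex IV against PDA. It measured 557 RPKM on PDA, 329 on glucose and 361 on poplar, with glucose 1.70-fold lower (1.44 to 2.00) and poplar 1.54-fold lower (1.32 to 1.81). Subunits 5a, Trave1_33532, and 5b, Trave1_126104, also had their highest value on PDA, the former at 462 RPKM on PDA, 356 on glucose and 384 on poplar and the latter at 314 RPKM on PDA, 234 on glucose and 266 on poplar. Subunit 7c, Trave1_44850, was the low outlier in level, with 29 reads on PDA, 19 on glucose and 22 on poplar, or 45.8 RPKM on PDA, 32.0 on glucose and 35.4 on poplar, and each of its intervals contained 1.

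The 5 assembly proteins of complex IV showed no difference between media beyond counting error. Their summed reads on glucose were 1.06-fold lower (0.919 to 1.22) than on PDA, an interval that includes 1. All 15 intervals of single genes included it too, as did those of most measured genes. Over all genes the interval lay above 1 for 20.2% and below 1 for 15.2% between poplar and glucose. These shares were 22% and 14.7% between poplar and PDA, and 20.8% and 19.5% between glucose and PDA. COX17, Trave1_146938, which carries copper to the oxidase, measured 173 RPKM on PDA, 193 on glucose and 176 on poplar. The COX11 gene Trave1_150345, also of copper insertion, measured 21.3 RPKM on PDA, 18.0 on glucose and 16.1 on poplar, and another gene with that name, Trave1_138743, measured 22.2 RPKM on PDA, 16.9 on glucose and 18.6 on poplar. COX15, a heme A synthase, is the name of Trave1_27556, at 4.25 RPKM on PDA, 3.77 on glucose and 4.33 on poplar. The name is also given to Trave1_53144, at 82.1 RPKM on PDA, 81.2 on glucose and 93.9 on poplar, which the files describe as a ferredoxin. With 15 to 18 reads per library, the glucose to PDA ratio of Trave1_27556 had an interval from 0.416 to 1.86, and a difference inside it was not detectable at this depth. The intervals of Trave1_150345, with 39 reads on PDA, 31 on glucose and 29 on poplar, were wide as well.

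ATP synthase makes ATP from ADP and phosphate as protons flow back through the membrane. All 11 of its subunits found by the rule were lower on glucose than on PDA, each with an interval below 1. On poplar 10 were lower than on PDA, again each with an interval below 1. Among all genes with a mean of at least 100 reads, these intervals lay below 1 for 32.9% and 25%. Summed reads were 1.21-fold lower (1.18 to 1.24) on glucose and 1.16-fold lower (1.13 to 1.18) on poplar. Between poplar and glucose the direction was not settled, since the log2 ratio of summed reads was 0.064 as deposited and −0.025 after median-of-ratios scaling.

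In the catalytic head, the beta subunit Trave1_61770, which holds the catalytic sites, had the most reads of all members. It measured 1086 RPKM on PDA, 893 on glucose and 901 on poplar, with glucose 1.22-fold lower (1.17 to 1.27) than PDA. The alpha subunit Trave1_59086 measured 845 RPKM on PDA, 738 on glucose and 769 on poplar, with glucose 1.15-fold lower (1.09 to 1.20). The central stalk turns inside this head. Its gamma subunit Trave1_52615 measured 492 RPKM on PDA, 342 on glucose and 366 on poplar, with glucose 1.44-fold lower (1.31 to 1.58), and its epsilon subunit Trave1_119167, the lowest of the complex, measured 288 RPKM on PDA, 168 on glucose and 213 on poplar, with glucose 1.72-fold lower (1.34 to 2.22). The delta subunit Trave1_142737, also of the central stalk in mitochondria, was the exception against PDA. It measured 1100.0 RPKM on PDA, 992 on glucose and 1193 on poplar, highest on poplar, where it was 1.08-fold higher (1.01 to 1.16) than on PDA as deposited.

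The peripheral stalk holds the head still. Its subunit b, Trave1_47575, measured 1175 RPKM on PDA, 1049 on glucose and 1052 on poplar, and subunit d, Trave1_144812, measured 853 RPKM on PDA, 683 on glucose and 693 on poplar. Subunit h, Trave1_30476, known from the yeast enzyme, measured 447 RPKM on PDA, 361 on glucose and 386 on poplar. Among the small membrane subunits, f, Trave1_41296, measured 599 RPKM on PDA, 471 on glucose and 466 on poplar and g, Trave1_59731, measured 324 RPKM on PDA, 227 on glucose and 241 on poplar. Subunit j, Trave1_41213, had the lowest ratio of the 58 subunits between glucose and PDA. It measured 642 RPKM on PDA, 365 on glucose and 406 on poplar, 1.76-fold lower (1.47 to 2.11) on glucose. Within ATP synthase the log2 ratios between glucose and PDA thus spread from −0.81 to −0.15, with alpha, b and delta nearest to 0.

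**Figure D4:**
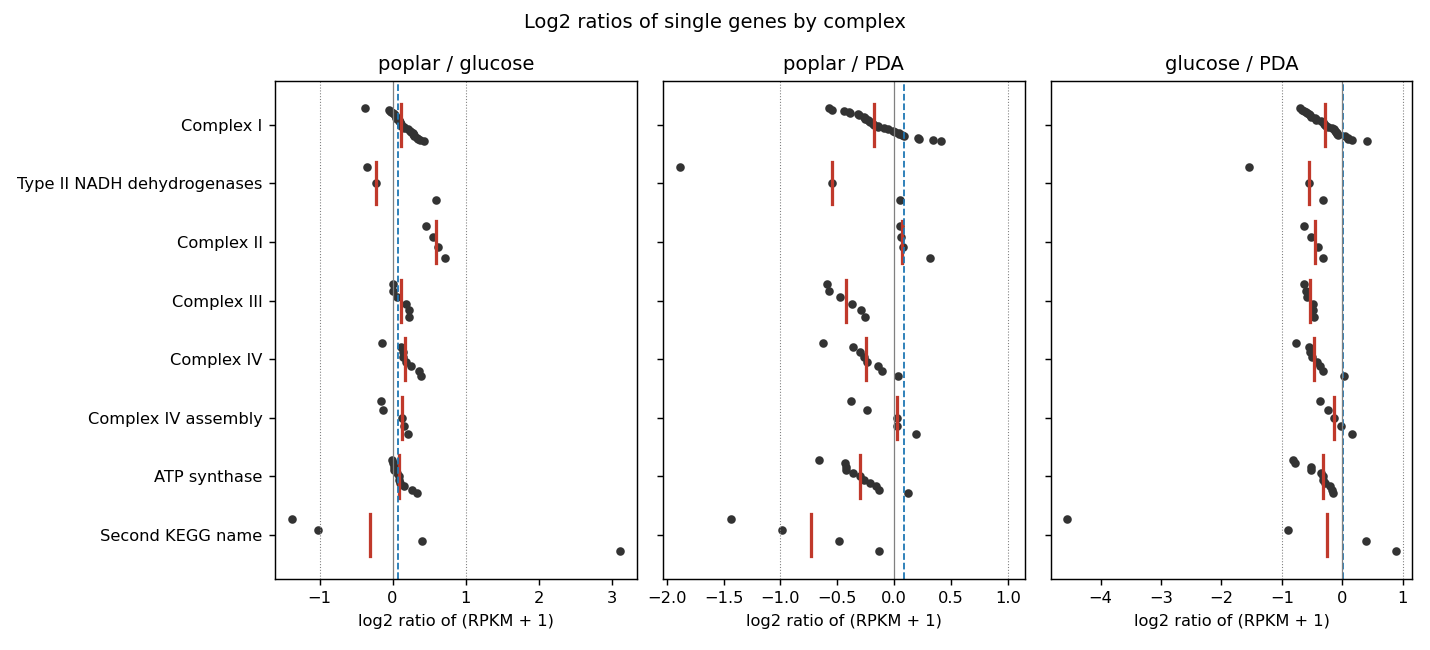
Log2 ratio of RPKM plus 1 for each measured member by group, in 3 panels, 1 per comparison, each with its own horizontal scale; red lines are group medians, the dashed blue line is the median of all measured genes and dotted lines mark 2-fold. Complex II stands to the right between poplar and glucose (median 0.59), and complex III to the left between poplar and PDA (median −0.42).

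The 5 members with a second KEGG name held most of the 2-fold calls, and their other annotation goes against their first name. Of these, 4 are called cytochrome c oxidase subunit 6a and also a monooxygenase, and 1 is called cytochrome c1 and also an endoplasmic reticulum ATPase. Their gene models are 1362 to 1704 bases long, against 384 bases for the subunit 6a gene Trave1_139267. Trave1_39244 had 209 reads on PDA, 4 on glucose and 73 on poplar. At 43.0 RPKM on PDA, 0.877 on glucose and 15.3 on poplar, it was 49.1-fold lower (18.9 to 182) on glucose than on PDA and 17.5-fold higher (6.53 to 65.8) on poplar than on glucose. Trave1_171988 measured 10.3 RPKM on PDA, 13.9 on glucose and 4.70 on poplar, with poplar 2.95-fold lower (1.79 to 5.03) than glucose. Trave1_57979, named although it is under 10 RPKM, measured 4.12 RPKM on PDA, 8.50 on glucose and 3.67 on poplar. Trave1_164168, the cytochrome c1 namesake, measured 10.5 RPKM on PDA, 5.22 on glucose and 7.24 on poplar. Trave1_50582 had 4 reads on PDA, 4 on glucose and 1 on poplar, the only member below 1 RPKM in all 3 libraries. None of these values was read as a level of complex III or IV.

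Alternative oxidase, the bypass of complexes III and IV, was found only by protein description. This gene, Trave1_121765, has no such KEGG name, lies outside the rule and was chosen after its values were seen. It measured 20.3 RPKM on PDA, 24.0 on glucose and 14.3 on poplar, and was 1.68-fold lower (1.10 to 2.59) on poplar than on glucose, while its glucose to PDA interval contained 1. An assembly protein of complex I found in the same way, Trave1_21540, measured 18.5 RPKM on PDA, 30.2 on glucose and 30.8 on poplar, 1.64-fold higher (1.08 to 2.52) on glucose than on PDA.

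Cytochrome c, Trave1_37993, the carrier between complexes III and IV, did not follow either complex. It measured 189 RPKM on PDA, 189.6 on glucose and 115 on poplar, level between PDA and glucose, and was 1.65-fold lower (1.29 to 2.12) on poplar than on PDA and 1.65-fold lower (1.29 to 2.13) than on glucose. The adenine nucleotide carrier Trave1_42267, which exchanges ATP for ADP across the inner membrane, measured 1197 RPKM on PDA, 903 on glucose and 1022 on poplar, with glucose 1.33-fold lower (1.26 to 1.40) than PDA. Of the 44 mitochondrial carrier genes 2 were called higher and 0 lower on poplar against glucose, 1 and 0 on poplar against PDA, and 0 and 2 on glucose against PDA, shares below those of all genes (8.1% and 8.31%, 10.8% and 5.11%, 12.7% and 6.52%). Their median log2 ratio between glucose and PDA was −0.36. The carnitine carrier Trave1_41778, which imports acyl groups, was 2.49-fold higher (2.17 to 2.87) on poplar than on glucose, at 80.8 RPKM on PDA, 75.9 on glucose and 189 on poplar.

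The name patterns for the TCA cycle matched 34 genes, of which 14 carry names of lysine or leucine synthesis, malic enzyme or another 2-oxoglutarate dehydrogenase, or are described as transporters, and were set apart after their values were seen. The other 20 carry names of enzymes of the cycle or of the pyruvate dehydrogenase complex that feeds it, and were taken by name alone. Among them, Trave1_29904 is described as a peroxisomal citrate synthase. The isocitrate dehydrogenase Trave1_31709 has another enzyme class number than the NAD+ form. Of these 20, 3 were called higher and 0 lower on poplar than on glucose, against 8.1% and 8.31% of all genes. Between poplar and PDA 0 were called in either direction (background 10.8% and 5.11%), and between glucose and PDA 0 were higher and 1 lower (12.7% and 6.52%). Their summed reads were 1.35-fold higher (1.31 to 1.38) on poplar than on glucose, with a median log2 ratio of 0.14, and 1.33-fold lower (1.29 to 1.36) on glucose than on PDA. Between poplar and glucose 14 of the 20 lay above a ratio of 1 (background 56.5%) and 6 below. Over all 33 measured genes of the name match the calls were 4 higher and 1 lower, 2 and 0, and 2 and 2, in the same order. Aconitase, Trave1_170804, had the most reads of the 20 and weighs heavily in these sums, with 3597 of 15572 reads on poplar and 1503 of 11066 on glucose. It measured 431 RPKM on PDA, 238 on glucose and 544 on poplar, 2.29-fold higher (2.15 to 2.43) on poplar than on glucose. The E2 component of 2-oxoglutarate dehydrogenase, Trave1_31176, measured 164 RPKM on PDA, 117 on glucose and 243 on poplar, 2.08-fold higher (1.85 to 2.35). An E1 component of the same complex, Trave1_58362, had 225 reads on PDA, 97 on glucose and 257 on poplar, 2.53-fold higher (2.00 to 3.24) on poplar than on glucose per length and total, and was the one enzyme called lower between glucose and PDA. Of the genes set apart, Trave1_41903 carries a citrate synthase name but is described as a transporter, and the malic enzyme Trave1_172764 measured 27.3 RPKM on PDA, 77.3 on glucose and 57.6 on poplar.

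Among other dehydrogenases that feed ubiquinone or share a name with those that do, 1 of 10 measured genes was called higher and 0 lower on poplar than on glucose. Against PDA, poplar had 1 of 9 higher and 1 lower, and between glucose and PDA 0 of 10 were higher and 1 lower. In such a short list a single gene is about the share of all genes given above. Proline dehydrogenase, Trave1_56102, was the higher one in both poplar comparisons, at 5.99 RPKM on PDA, 7.38 on glucose and 16.7 on poplar, and a dihydroorotate dehydrogenase, Trave1_93446, was the lower one in both comparisons with PDA, at 19.8 RPKM on PDA, 8.51 on glucose and 8.53 on poplar. Of the 6 import and assembly genes, 5 carry the name BCS1, a chaperone that in yeast inserts the Rieske protein into complex III. Unlike the complexes, the summed reads of the 6 were 1.41-fold higher (1.31 to 1.51) on glucose than on PDA, with 4 intervals above 1 (background 20.8%). On poplar they were 1.69-fold lower (1.57 to 1.82) than on glucose, with 4 intervals below 1 (background 15.2%). Among all genes with a mean of at least 100 reads these 2 backgrounds were 30.7% and 23.1%. Of the 6, Trave1_168423 measured 89.2 RPKM on PDA, 157 on glucose and 34.8 on poplar. It was 4.51-fold lower (3.84 to 5.32) on poplar than on glucose. The import pore TOM40, Trave1_57719, measured 169 RPKM on PDA, 162 on glucose and 169 on poplar. The vacuolar ATPase is a related proton pump that consumes ATP. All 12 of its genes lay above a ratio of 1 between poplar and glucose as deposited (background 56.5%). None did so by 2-fold, and their summed reads were 1.22-fold higher (1.16 to 1.28). The plasma membrane proton ATPase Trave1_153225, which drives nutrient uptake, measured 509 RPKM on PDA, 365 on glucose and 521 on poplar, again with glucose as the low library.

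**Figure D5:**
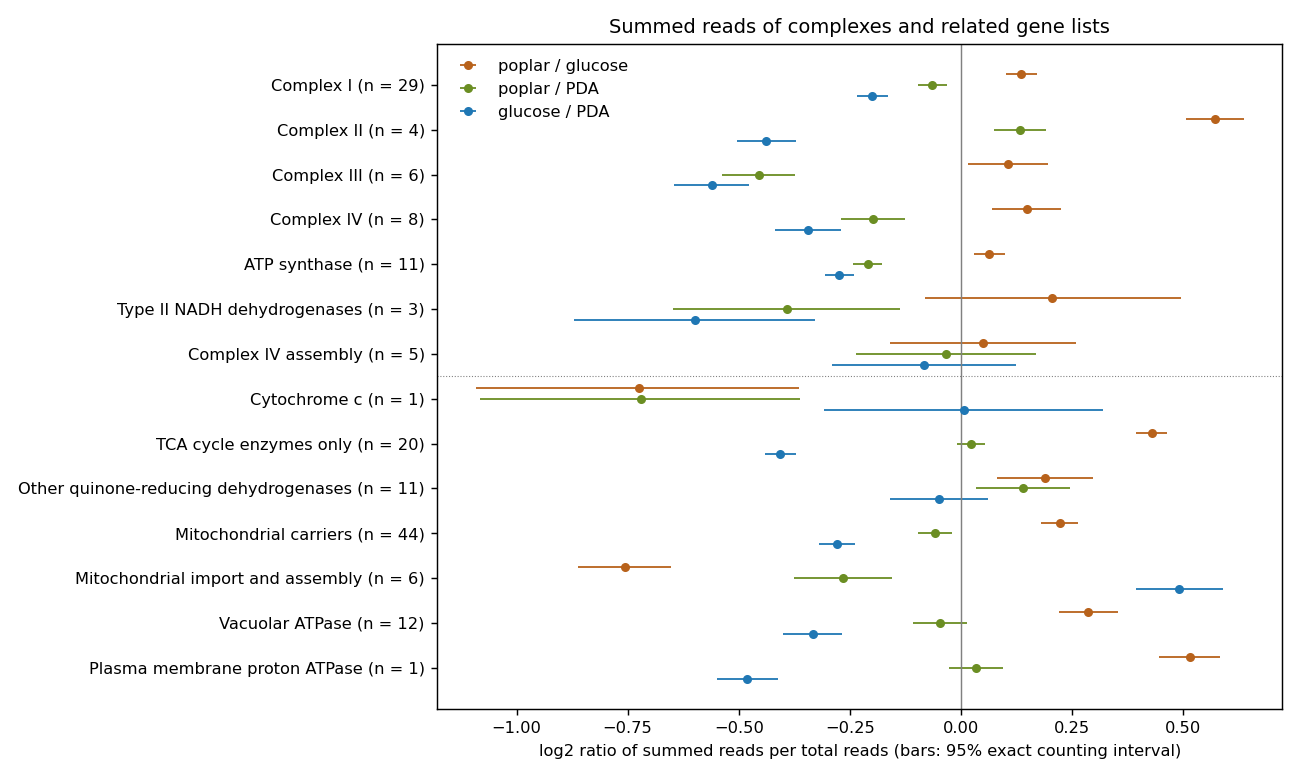
Log2 ratio of summed reads per total reads for each complex and related gene list, with 95% exact counting intervals as bars (counting error only); orange is poplar over glucose, green poplar over PDA and blue glucose over PDA. All 5 complexes lie left of 0 for glucose over PDA, and complex II lies farthest right of the complexes for poplar over glucose.

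Levels per length varied within each complex. On PDA the highest subunit exceeded the lowest by 4.60-fold in complex I, 2.31-fold in complex II, 2.91-fold in complex III, 19.8-fold in complex IV and 4.07-fold in ATP synthase. Gene length moved with part of this spread. Over the 29 complex I subunits, which share their libraries, Spearman's rho of mean RPKM with length was −0.44, and over all 58 subunits it was −0.14. The 14 subunits under 300 bases had a median log2 ratio of −0.52 between glucose and PDA, and the other 44 had −0.32. Spearman's rho of this ratio with length was weak, at 0.25 over the 58 subunits and 0.13 within complex I. Per the labels' extract protocol, the RNA was fragmented to lengths near those of the shortest gene models, and the part of length in these differences was not tested.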

How the data were processed

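Polyadenylated RNA was sequenced from 1 library each of Trametes versicolor on PDA, glucose and poplar, grouped by source name. The deposited tables list, per the file headers, counts of uniquely assigned reads, gene model length, coverage in percent of the gene model, and RPKM, which the authors scaled to the total of these reads. Only gene models with reads are listed, and a missing one was set to 0. Cufflinks 2.0.1 is named in the submitters' processing notes, with no role. Aligner and build were not given in the sources used here. Strand is not given either, so reads of overlapping or antisense genes cannot be told apart, and genes sharing near-identical copies are uncertain. Gene models are nearly all multiples of 3 in length, so lengths are coding lengths.

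Members were matched on the first KEGG entry and grouped by complex. Ratios used log2(RPKM + 1), which understates the change of low genes. Counting intervals are exact (Clopper-Pearson, 95%) on the deposited counts, and shares have Wilson intervals. They cover counting error only, and understate even that where PCR copies were counted as independent molecules. With 1 library per medium no test was made. At 2.68 M to 2.85 M reads the median member had 306 to 440 reads. Named genes are members at least 2-fold apart with at least 10 RPKM in the higher library, the 3 highest and the lowest of each complex, and all type II NADH dehydrogenases and complex II subunits; other named genes were chosen after their values were seen. The related lists follow the same rule with KEGG names. The members and lists were chosen with earlier results of these data known. Alternatives were other pseudocounts, filters, folds, scalings and member rules. Scripts were tested on simulated data and used Python 3.11.15, pandas 2.3.3, numpy 2.4.6, scipy 1.17.1 and matplotlib 3.10.9.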

Additional observations from a re-analysis of the deposited data

How the results depend on the processing

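Of 114 alternative values of the main results, 87 were counted as the same and 27 as moved. A count was the same if within 1.5-fold, and a summed ratio if inside its counting interval. A median was the same if inside the median limits of the single-gene intervals, a wide range. For poplar against glucose that range was −0.11 to 0.37. The median of 0.12 there became 0.039 with median-of-ratios scaling, and −0.23 for poplar against PDA became −0.33, both counted as the same. For poplar against glucose the 1 member called higher became 0 with members found by description, with subunits only or without the genes with a second KEGG name, and 4 at 1.5-fold. The 2 called lower became 0 with a pseudocount of 5, by description, with subunits only or without second names, and 1 at a minimum of 10 RPKM. The log2 ratio of summed reads, 0.15, became 0.064 with median-of-ratios scaling and 0.29 by description. For poplar against PDA the 2 called lower became 0 by description or with subunits only, 1 without second names and 6 at 1.5-fold. The summed ratio, −0.14, became −0.24 with median-of-ratios scaling, −0.21 without the 50 genes with most reads and −0.029 by description. For glucose against PDA the 0 called higher became 1 with a pseudocount of 0.1 or at 1.5-fold. The 2 called lower became 1 with a pseudocount of 5 or without second names, 0 by description or with subunits only, and 14 at 1.5-fold. The summed ratio, −0.29, became −0.36 without the top 50 genes and −0.32 by description. For the summed ratios of single complexes, 15 alternative values were the same, 14 moved and 1 reversed. The reversed one was ATP synthase between poplar and glucose, from 0.064 to −0.025 with median-of-ratios scaling. The second-name and complex-level alternatives were chosen after seeing the data, and the cause of these shifts was not tested. Description found 17 genes, 15 of them shared with the rule, and any KEGG entry 74. No paired analysis was possible because each medium has 1 library. With no replicates, differences between cultures cannot be told apart from differences between media.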
